A study of Mus musculus with 10 samples.

Results

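Inhibition of DOT1L or of MENIN was compared, as 1 group, with inhibition of the BET bromodomain proteins in MAF9 cells. The group of 4 libraries held both libraries from cells treated with EPZ5676, an inhibitor of the histone methyltransferase DOT1L, and both from cells treated with MI-2-2, which blocks the binding of MENIN to MLL proteins. The other group held both libraries from cells treated with iBET, an inhibitor of the BET proteins. These were 6 of the 10 samples of the series, and they were chosen by the treatment named in their labels. The comparison asks which genes separate cells under inhibitors of the MLL complexes on chromatin from cells under a BET inhibitor, and the mock-treated cells were left out of the ratio.

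MAF9 cells are mouse bone marrow cells, labelled C57BL/6, that were transduced with the leukemia fusion gene MLL-AF9, and the fusion was present in all groups. They grew in IMDM with 15% FBS and 10 ng/ml IL-3 and received each inhibitor for 4 days at a dose the labels call its IC50. The other 4 samples were treated with DMSO as control or with MM-401, which blocks the interaction of MLL1 with WDR5, and they serve here only as levels. RNA was sequenced in bulk, with 2 libraries for each of the 5 conditions. The labels call each pair biological duplicates but do not say whether separate cultures were used, so p-values measure the spread between these samples.

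The 6 libraries held between 21249483 and 29473127 counted reads. Levels are given as counts scaled to 1000000 reads (CPM) after TMM normalization, and 1 read was worth 0.0365 to 0.0483 CPM. Of 24015 genes counted, 16955 had a read in these 6 libraries and 12755 passed the filter on low counts. The DMSO libraries stood apart from each other. Across genes, 14.4% differed over 2-fold between the DMSO libraries, while between replicates 3.08% did so under EPZ5676, 3.62% under MI-2-2 and 1.22% under iBET. The X-inactivation transcript Xist had 4.64 CPM in DMSO replicate 2 and 1030 to 2810 CPM in the other 9 libraries. Between the groups compared here, Xist was at -0.62 on the log2 scale (adjusted p = 0.0351), with 1030 to 1570 CPM against 2200 and 2040 CPM. That call was lost without MI-2-2 replicate 1 (0.0512), MI-2-2 replicate 2 (0.0748), iBET replicate 1 (0.153) or iBET replicate 2 (0.11), and with all 10 libraries in the fit (0.721), in a range from 0.00179 to 0.721. Because of the gap between the DMSO libraries, DMSO levels are given for each library on its own.

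MLL fusion proteins hold a program of self-renewal genes active, above all the HOXA cluster and its partner Meis1. DOT1L joins MLL-AF9 through the AF9 part, MENIN binds the MLL part, and BET proteins bind acetylated histones and bring in the elongation kinase P-TEFb. Myeloid cells released from this program can mature along the neutrophil path, on which primary granule enzymes are made before specific and gelatinase granule proteins, or along the monocyte and macrophage path.

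At an adjusted p of 0.05 in the quasi-likelihood test of edgeR, adjusted by the Benjamini-Hochberg method, 6810 of 12755 genes (53.4%) differed. Of these, 3447 (27% of all tested) were higher with EPZ5676 and MI-2-2 and 3363 (26.4%) were lower. The sizes were less even than the counts. Over 2-fold, 2244 genes (17.6%) were higher and 878 (6.88%) lower, and over 8-fold 921 (7.22%) were higher and 44 (0.345%) lower. The median log2 difference was 1.54 among the genes called higher and -0.71 among those called lower. The smallest adjusted p was 1.14e-05.

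In 4048 genes (31.7%) all 4 libraries lay above both iBET libraries, and in 4510 (35.4%) all 4 lay below. Of the genes called, 6727 (98.8%) did not overlap between the groups. With iBET, 140 of the genes called higher had no read, while with EPZ5676 and MI-2-2 this was so for 1 of the genes called lower. The iBET libraries carried much of the call count. Without iBET replicate 2, 3845 genes were called, 2115 higher and 1730 lower, and without iBET replicate 1, 4649 were called, of which 2184 lower. In each of these fits the lone iBET library is assumed to vary like the other conditions.

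A few genes filled a larger part of the EPZ5676 and MI-2-2 libraries. The 10 most abundant genes took 6.72 and 8.15% of reads with EPZ5676, 6.49 and 6.24% with MI-2-2, and 2.72 and 2.70% with iBET. Scaling by total counts in place of TMM moved the median log2 difference of all genes from -0.01 to -0.17 and the share of calls that were higher from 50.6% to 39.4%. Since RNA was taken from all cells together, fewer cells of a type and less RNA per cell cannot be told apart here or in any result that follows.

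**Figure D1:**
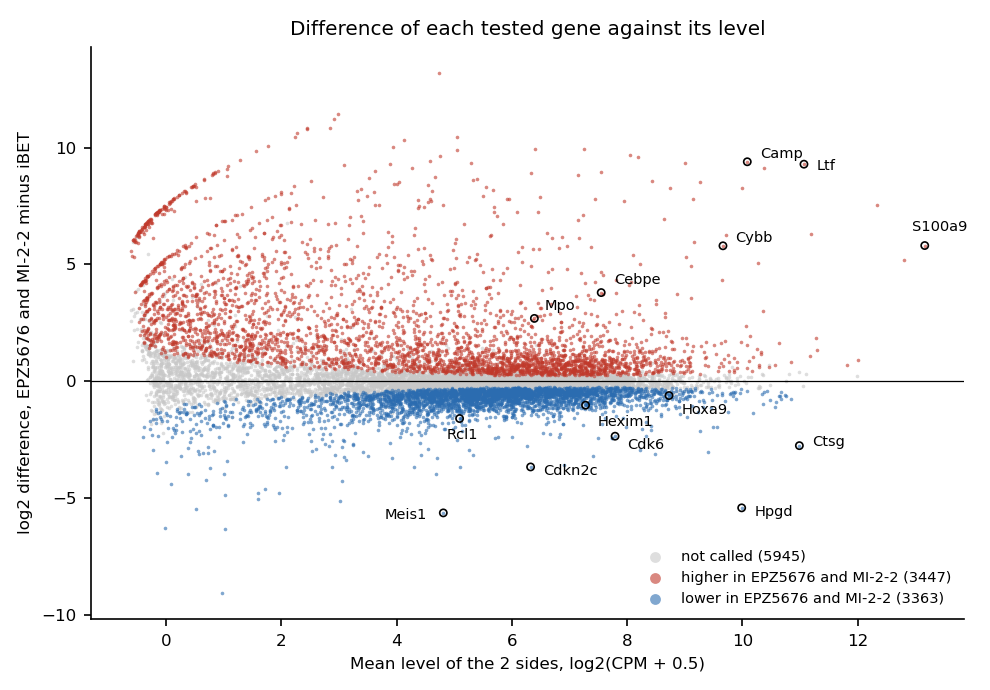
Log2 difference between EPZ5676 with MI-2-2 and iBET for each of the 12755 genes tested (vertical axis) against the mean level in log2(CPM + 0.5) (horizontal axis). Color marks 3447 genes called higher and 3363 called lower. The upper side reaches farther from 0: 921 genes over 8-fold higher and 44 over 8-fold lower.

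The labelled cell type was checked against 10 markers of myeloid leukemia cells, and no marker was at 0 in any library. Their summed level was 4070 and 5240 CPM with EPZ5676, 4320 and 5110 CPM with MI-2-2, 1950 and 1890 CPM with iBET, and 2340 and 6850 CPM with DMSO. The most abundant marker was the integrin Itgam (CD11b) with EPZ5676 and MI-2-2, but Hoxa9 with iBET. Itgam, which is gained as myeloid cells mature, had 1850 and 2530 CPM with EPZ5676, 2150 and 2720 CPM with MI-2-2, and 317 and 266 CPM with iBET. It was higher in all 4 libraries, by 3.02 on the log2 scale (SE 0.203, adjusted p = 0.000117). The stem cell antigen Cd34 was below 2 CPM in all 6 libraries. Of the 10 markers, 6 were called higher (60%, beside 27% of all genes) and 3 lower (30%, beside 26.4%).

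Genes of specific and gelatinase granules, which neutrophils make late in maturation, were higher throughout. All 22 genes of this list were called higher, beside 27% of all genes tested, and their median log2 difference was 6.91, beside -0.01 for all genes. Together they reached 58700 and 81100 CPM with EPZ5676 and 53400 and 55400 CPM with MI-2-2. With iBET they reached 1460 and 677 CPM, and with DMSO 4500 and 1400 CPM. In reads this was 5.16 to 7.33% of each EPZ5676 or MI-2-2 library and 0.0694 to 0.15% of each iBET library. The iBET libraries thus lay below DMSO replicate 1 and, in replicate 2, below both DMSO libraries.

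Camp, the precursor of the antimicrobial peptide cathelicidin, had 2460 and 3500 CPM with EPZ5676, 1370 and 1350 CPM with MI-2-2, and 2.97 and 3.11 CPM with iBET. Ltf, the iron-binding protein lactoferrin, had 3180 and 4830 CPM with EPZ5676, 4050 and 5080 CPM with MI-2-2, and 8.47 and 5.49 CPM with iBET. The groups did not overlap for either gene. Camp was higher in both EPZ5676 libraries than in both MI-2-2 libraries, but the difference between the inhibitors was not called (adjusted p = 0.0776). The log2 difference was 9.40 for Camp (SE 0.256, adjusted p = 1.44e-05) and 9.29 for Ltf (SE 0.381, adjusted p = 2.92e-05), a 675-fold and a 628-fold difference. With DMSO, Camp had 52.5 and 39.1 CPM and Ltf 25.1 and 8.89 CPM, between the groups but nearer to iBET.

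The chitinase-like protein Chil3 had 1830 and 4120 CPM with EPZ5676, 2030 and 2570 CPM with MI-2-2, and 5.05 and 4.5 CPM with iBET, a log2 difference of 9.13 (SE 0.488, adjusted p = 5.33e-05). Its level is uncertain to the extent that reads are shared with related chitinase-like genes. The calcium-binding alarmin subunit S100a9, named after its values were seen, was the most abundant gene of the EPZ5676 and MI-2-2 libraries. It had 17900 and 24800 CPM with EPZ5676, 14800 and 14700 CPM with MI-2-2, and 489 and 157 CPM with iBET, a log2 difference of 5.81 (SE 0.579, adjusted p = 0.000456). The iBET libraries were themselves apart, but the lowest of the other 4 was far above both. The protease inhibitor Slpi, also named after its values were seen, had the smallest difference of the list, 2.86. The formyl peptide receptor Fpr1, named in the same way, had 1 read in each iBET library, a ratio of 570 with a 95% counting interval from 158 to 4710, and it can share reads with its relative Fpr2.

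The promoters of Camp, Ltf and Chil3, the 3 genes of this list with the largest differences, are shown because the genes moved together and C/EBP factors are known to act on granule genes. Sequences are from RefSeq on GRCm38.p6, from 250 bases before to 50 bases after the start of transcription, 5′ to 3′ on the strand of the gene. They lie at chr9:109849407-109849706 on the minus strand (Camp), chr9:111019042-111019341 on the plus strand (Ltf) and chr3:106167515-106167814 on the minus strand (Chil3). Capitals mark a match to the C/EBP-type motif TTGCNNAA on either strand.
Camp: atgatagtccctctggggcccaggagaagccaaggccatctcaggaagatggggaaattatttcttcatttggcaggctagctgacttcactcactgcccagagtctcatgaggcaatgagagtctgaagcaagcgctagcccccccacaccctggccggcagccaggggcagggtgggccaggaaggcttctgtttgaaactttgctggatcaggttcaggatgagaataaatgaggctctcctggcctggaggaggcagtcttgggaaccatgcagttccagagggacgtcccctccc
Ltf: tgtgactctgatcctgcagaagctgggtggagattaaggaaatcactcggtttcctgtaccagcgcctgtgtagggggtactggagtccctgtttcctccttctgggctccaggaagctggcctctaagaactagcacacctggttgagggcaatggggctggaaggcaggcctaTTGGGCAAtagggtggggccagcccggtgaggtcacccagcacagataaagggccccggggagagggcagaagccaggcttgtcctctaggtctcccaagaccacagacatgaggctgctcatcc
Chil3: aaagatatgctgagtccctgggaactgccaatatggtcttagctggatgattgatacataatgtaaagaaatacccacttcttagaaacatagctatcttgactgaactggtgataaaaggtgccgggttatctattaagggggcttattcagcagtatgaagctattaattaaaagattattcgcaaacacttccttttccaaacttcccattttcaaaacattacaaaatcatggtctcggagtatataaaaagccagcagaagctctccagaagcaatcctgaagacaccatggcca
The Ltf window held 1 match, 75 bases before the start, and the other windows held none. Of the 22 listed genes, 19 were found in the promoter table, and 8 of their 20 windows (40%) held the motif, beside 3547 of all 32851 windows (10.8%). A match is only a description of the letters, and binding was not measured here.

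**Figure D2:**
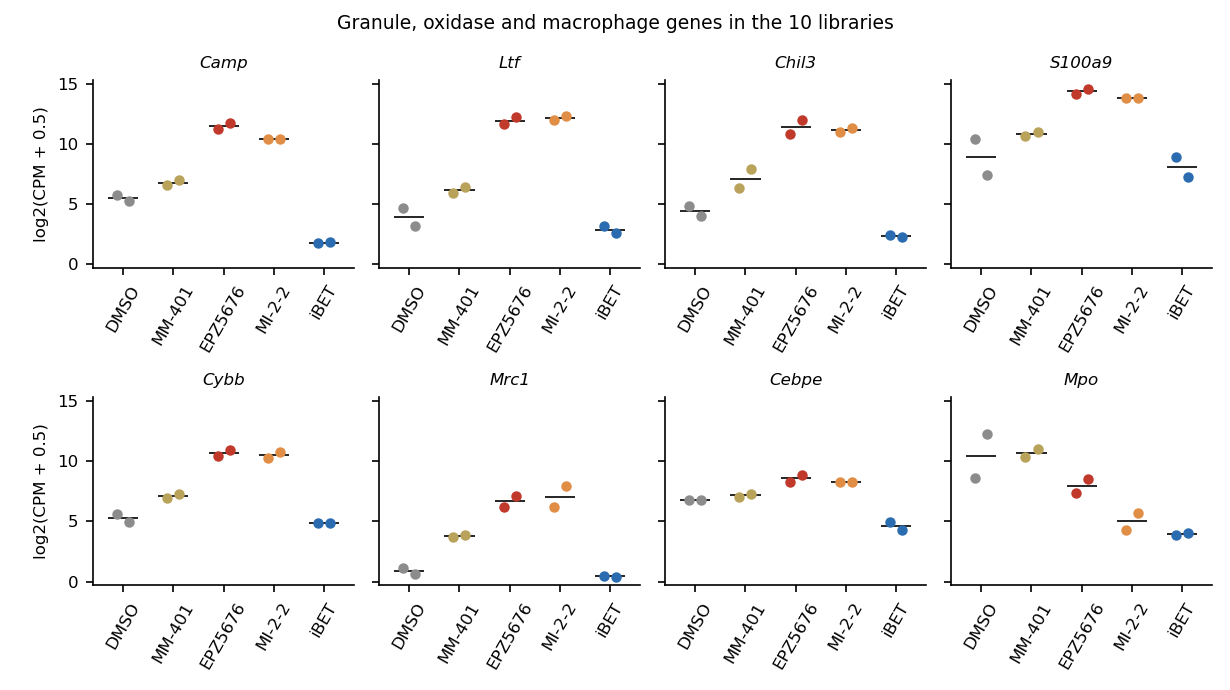
Level in CPM on a log axis for 8 genes of myeloid maturation, with 1 point for each library of EPZ5676, MI-2-2, iBET and DMSO. Camp, Ltf, Chil3, S100a9, Cybb, Mrc1 and Cebpe have all 4 EPZ5676 and MI-2-2 points above both iBET points. The fitted difference between the groups is 13.9-fold or more for each of these genes. For Mpo the lowest MI-2-2 point, 19.6 CPM, is close to iBET at 16.2 CPM.

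The phagocyte NADPH oxidase, the enzyme of the oxidative burst, had all 6 of its genes called higher (100%, beside 27% of all genes), with a median log2 difference of 1.50. The catalytic subunit Cybb had 1410 and 1960 CPM with EPZ5676, 1250 and 1750 CPM with MI-2-2, and 29.3 and 29 CPM with iBET. This was a log2 difference of 5.80 (SE 0.252, adjusted p = 2.96e-05), with little spread in either group. DMSO, at 48.7 and 30.6 CPM, was near iBET. The cytosolic subunits Ncf1 and Ncf4 were higher by 2.36 and 1.78 and the GTPase Rac2 by 1.17. The membrane partner Cyba was higher by 0.44, the least of the 6, with 771 to 1080 CPM against 657 and 658 CPM.

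Primary granule genes, made at the promyelocyte stage, split. Of 13 genes, 6 were called higher (46.2%, beside 27% of all genes) and 4 lower (30.8%, beside 26.4%), and their summed level was 4360 and 4960 CPM with EPZ5676, 4260 and 3450 CPM with MI-2-2, 8330 and 8050 CPM with iBET, and 12500 and 17000 CPM with DMSO. Cathepsin G (Ctsg), a serine protease, had 309 and 456 CPM with EPZ5676, 737 and 623 CPM with MI-2-2, and 3600 and 3460 CPM with iBET. Its log2 difference was -2.76 (SE 0.169, adjusted p = 8.89e-05), and the groups did not overlap. Proteinase 3 (Prtn3) was lower by the same comparison, at -1.35 (adjusted p = 0.00126), with 396 to 896 CPM against 1820 and 1510 CPM. Plac8 was also lower, at -1.10, a call lost without iBET replicate 2 (adjusted p = 0.0768, with a range from 0.000249 to 0.0768 over the alternatives), and without that library 2 genes of the list were called lower.

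Myeloperoxidase (Mpo), the enzyme that makes hypochlorous acid, had 166 and 367 CPM with EPZ5676, 19.6 and 51.9 CPM with MI-2-2, and 14.6 and 16.2 CPM with iBET. The log2 difference was 2.69 (SE 0.49, adjusted p = 0.00439), and it came more from EPZ5676 than from MI-2-2. Against iBET, EPZ5676 alone gave 4.14 (adjusted p = 0.00173) and MI-2-2 alone 1.24 (adjusted p = 0.0852), and the difference between the inhibitors themselves was 2.90 (95% interval 1.66 to 4.14, adjusted p = 0.105). With all 10 libraries in the fit the adjusted p for the group of 4 was 0.0532, in a range over the alternatives from 6.34e-06 to 0.0532. With DMSO, Mpo had 385 and 4800 CPM, above all 6 libraries. The serine protease Prss57 and the cystatin Cst7 were higher by 2.83 and 1.92, yet they too were lower than with DMSO in replicate 1, at 91.3 and 97.2 CPM. Elane, neutrophil elastase, named after its values were seen, was higher by 0.94 (adjusted p = 0.0483), a call that was lost without EPZ5676 replicate 1 (0.0944), EPZ5676 replicate 2 (0.0652), MI-2-2 replicate 1 (0.0813) or iBET replicate 2 (0.246), under total-count scaling (0.081) and with both inhibitors as a single condition (0.0626), in a range from 0.000236 to 0.246.

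Monocyte and macrophage genes were also higher, though less uniformly. Of 30 listed genes 29 were tested, and 26 were called higher (89.7%, beside 27% of all genes) and none lower by edgeR in the main fit, with a median log2 difference of 2.80. Under total-count scaling 1 was called lower. Genes that did not pass included Ly6c2 and Apoe, named after their values were seen. The mannose receptor Mrc1 had 74.7 and 142 CPM with EPZ5676, 72 and 246 CPM with MI-2-2, and 0.931 and 0.845 CPM with iBET. Its log2 difference was 7.23 (SE 0.762, adjusted p = 0.00055), and the 4 libraries spread more than for Camp, Ltf, Chil3 or S100a9. The scavenger receptors Cd36 and Marco had no read with iBET. Cd36 had 1.3 and 7.39 CPM with EPZ5676 and 7.89 and 36.8 CPM with MI-2-2, at least 241-fold higher against a floor of 3 reads over the iBET group (adjusted p = 0.00891). Most of the reads behind this bound came from MI-2-2 replicate 2. Marco had 3 and 6.21 CPM with EPZ5676 and 13.3 and 11.2 CPM with MI-2-2, at least 141-fold higher (adjusted p = 0.00042).

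The macrophage colony-stimulating factor receptor Csf1r, named after its values were seen, was higher by 1.68 (adjusted p = 0.012), with 35.6 to 66.1 CPM against 9.4 and 22.4 CPM. Summed over the list, levels were 6980 and 10100 CPM with EPZ5676, 6640 and 10000 CPM with MI-2-2, and 2620 and 3190 CPM with iBET. Lysozyme (Lyz2) was the most abundant gene of the former and Ly6c2 of the latter, and both have near-identical relatives, Lyz1 and Ly6c1, with which reads may be shared. In both EPZ5676 and MI-2-2 the sum was higher in replicate 2.

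Cytokines, chemokines and their receptors shifted with these genes. Of 39 listed genes 32 were tested, and 23 were called higher (71.9%, beside 27% of all genes) and 1 lower (3.12%, beside 26.4%), with a median log2 difference of 2.16. The chemokine receptor Cxcr2, which guides neutrophils, had 139 and 132 CPM with EPZ5676, 232 and 261 CPM with MI-2-2, and 3.1 and 1.58 CPM with iBET, a log2 difference of 6.34 (SE 0.281, adjusted p = 3.02e-05). The interleukin-1 receptor antagonist Il1rn was higher by 6.14, and the chemokine receptor Ccr1, shared by monocytes and neutrophils, by 3.16. Il7r had 2 reads with iBET and 717 with EPZ5676 and MI-2-2. The growth factor receptor Csf3r, named after its values were seen, was higher by 3.67, with 221 to 393 CPM against 23.9 and 22.8 CPM. The number called lower was 2 without MI-2-2 replicate 2, and also under total-count scaling, with DESeq2 and without a filter. Tgfb1, a cytokine that restrains growth, was the gene called lower, at -0.81 (adjusted p = 0.000826), with 197 to 230 CPM against 360 and 400 CPM.

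Antigen presentation genes were mostly near the limit of detection. Of 16 listed genes 8 passed the filter, 5 were called higher (62.5%, beside 27% of all genes), and 2 without iBET replicate 1 or without iBET replicate 2. None was called lower by edgeR in the main fit, and 1 was in 9 of the 15 alternatives, among them those without EPZ5676 replicate 1 and without iBET replicate 1 and the DESeq2 test. The costimulatory ligand Cd80 had 20.8 and 28.6 CPM with EPZ5676, 34.5 and 40.4 CPM with MI-2-2, and 4.57 and 4.84 CPM with iBET, a log2 difference of 2.72 (SE 0.182, adjusted p = 0.000116). The class II genes H2-Aa, H2-Ab1 and H2-Eb1 were at or below 1.78 CPM in all 6 libraries. Cd86 and Cd74 were higher by 1.41 and 1.69, but without iBET replicate 1 their adjusted p was 0.148 and 0.0704 and without iBET replicate 2 0.0639 and 0.165. Cd86 was also lost without EPZ5676 replicate 2 (0.0509) and Cd74 with both inhibitors as a single condition (0.0606). Over the alternatives it ran from 0.000104 to 0.148 for Cd86 and from 0.00101 to 0.165 for Cd74.

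Among transcription factors of myeloid cells, 14 of 22 tested were called higher (63.6%, beside 27% of all genes) and 4 lower (18.2%, beside 26.4%), with a median log2 difference of 0.78. Cebpe, the C/EBP factor of late granulocyte maturation, had 314 and 462 CPM with EPZ5676, 309 and 308 CPM with MI-2-2, and 31.4 and 19.6 CPM with iBET. It was higher by 3.80 (SE 0.267, adjusted p = 0.000135), and DMSO lay between, at 107 and 108 CPM. Erg and Id2 were higher by 7.55 and 4.67. Erg, an ETS factor of stem and progenitor cells, had 34.9 and 31.2 CPM with EPZ5676 and 17.1 and 16.4 CPM with MI-2-2, but 0.133 and 0.115 CPM with iBET, and DMSO had 7.72 and 5.26 CPM. Spi1 (PU.1), named after its values were seen, was higher by 1.00 (adjusted p = 0.00117).

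The monocyte and dendritic cell factor Irf8 had the opposite pattern. It had 33.6 and 29.7 CPM with EPZ5676, 39.3 and 52.2 CPM with MI-2-2, and 132 and 243 CPM with iBET, a log2 difference of -2.26 (SE 0.238, adjusted p = 0.00054). The iBET libraries also lay above DMSO, at 21 and 61.1 CPM. Tfec, a MiT family factor of myeloid cells, was lower by the same comparison, at -1.75 (adjusted p = 0.0011), with 81.6 to 194 CPM against 450 and 536 CPM. Zeb2 was at -1.03, and its call was lost without iBET replicate 2 (adjusted p = 0.1, in a range from 7.91e-05 to 0.1). Cebpa, chosen after its values were seen, was at -0.52 and was not called (adjusted p = 0.0544), but 8 of 15 alternatives called it, with adjusted p from 0.000277 to 0.312.

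Immediate early genes, which respond within minutes to signals and to handling, were higher in 11 of 15 (73.3%, beside 27% of all genes) and lower in none by edgeR, with a median log2 difference of 1.70. The phosphatase gene Dusp1 had 42.4 and 30.8 CPM with EPZ5676, 35.6 and 44.9 CPM with MI-2-2, and 7.93 and 4.26 CPM with iBET, a log2 difference of 2.70 (SE 0.308, adjusted p = 0.000747). Egr2 and Atf3 were higher by 2.84 and 2.74. For Egr2 the call was lost without iBET replicate 2 (adjusted p = 0.0677, in a range from 1.4e-07 to 0.0677). Summed over the list, iBET at 658 and 450 CPM was near DMSO at 477 and 333 CPM, below EPZ5676 at 1260 and 1000 CPM and MI-2-2 at 1550 and 1410 CPM.

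Genes of the MLL-AF9 program moved the other way. Of 28 listed genes 25 were tested, 19 were called lower (76%, beside 26.4% of all genes) and 3 higher (12%, beside 27%), and the median log2 difference was -1.16. The summed level was 1680 and 1740 CPM with EPZ5676, 2310 and 2170 CPM with MI-2-2, 4000 and 3830 CPM with iBET, and 3260 and 3590 CPM with DMSO. The iBET libraries were thus near the DMSO libraries in the sum, and the EPZ5676 and MI-2-2 libraries were below both.

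Meis1, the TALE homeobox partner of HOXA9, had 0.676 and 1.79 CPM with EPZ5676, 0.651 and 1.13 CPM with MI-2-2, and 51.1 and 56.9 CPM with iBET. It was 49.8-fold lower, a log2 difference of -5.64 (SE 0.307, adjusted p = 5.76e-05), while DMSO had 36.3 and 89.6 CPM. Hoxa9 had 276 and 288 CPM with EPZ5676, 401 and 362 CPM with MI-2-2, and 521 and 508 CPM with iBET. Its difference was small beside that of Meis1, at -0.61 (SE 0.0967, adjusted p = 0.00253), though the groups did not overlap. EPZ5676 alone gave -0.83 and MI-2-2 alone -0.40, each against the same iBET libraries. DMSO, at 444 and 379 CPM, was nearer to MI-2-2.

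The cell cycle kinase gene Cdk6 had 64.4 and 64.5 CPM with EPZ5676, 78.2 and 77 CPM with MI-2-2, and 394 and 347 CPM with iBET. This was a log2 difference of -2.35 (SE 0.091, adjusted p = 2.53e-05), with no overlap and little spread. The homeobox gene Six4 was at -2.25 (adjusted p = 0.000125), with 3.63 to 10.6 CPM against 26.6 and 33.2 CPM. The receptor gene Flt3 and the factors Gata2 and Myb were named after their values were seen. Flt3 had no read in the 4 EPZ5676 and MI-2-2 libraries and 142 reads with iBET, and was at least 90-fold lower. Gata2 was at -3.70, with 15 reads against 106. Myb was at -1.18, with 226 to 274 CPM against 563 and 607 CPM.

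The receptor tyrosine kinase gene Kit, a marker of progenitors, went against the rest of the program. It had 138 and 111 CPM with EPZ5676, 82.6 and 82.8 CPM with MI-2-2, and 41.9 and 45 CPM with iBET, and was higher by 1.26 (SE 0.128, adjusted p = 0.000494). The chromatin protein gene Hmga2 was also higher, by 1.83 (adjusted p = 0.000135), with 23.8 to 26.5 CPM against 7.14 and 7.11 CPM. The remaining gene called higher was Bcl11a, named after its values were seen, with 61 reads against none, at least 10.7-fold. Most of these reads came from EPZ5676, at 1.21 and 1.46 CPM, where MI-2-2 had 0.0867 and 0.109 CPM. With all 10 libraries in the fit, all 3 lost their call, and the adjusted p was 0.0619 for Kit (range 6.46e-17 to 0.0619) and 0.159 for Hmga2 (range 6.33e-28 to 0.159). DMSO had 45.7 and 180 CPM of Kit, and its replicates thus spanned both groups.

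**Figure D3:**
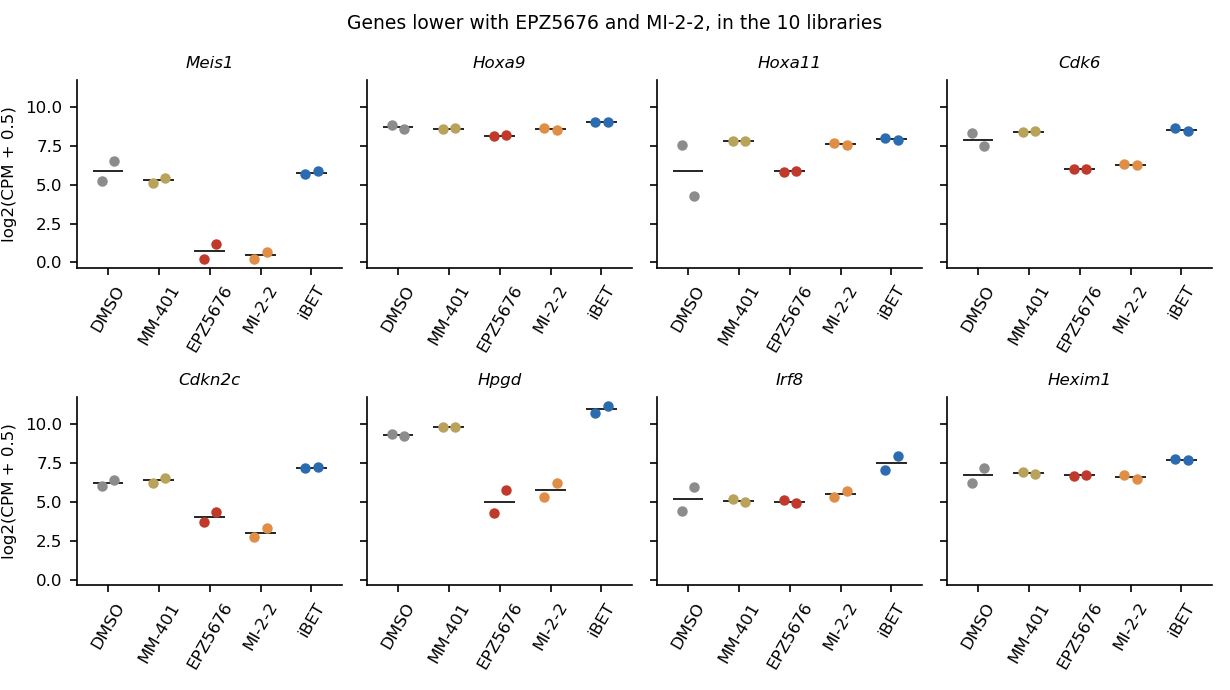
Level in CPM on a log axis for 8 genes that were lower with EPZ5676 and MI-2-2, with 1 point for each library of EPZ5676, MI-2-2, iBET and DMSO. Meis1 and Hpgd differ 49.8-fold and 42.9-fold, Hoxa9 1.53-fold, and for Hoxa11 the MI-2-2 points, 205 and 187 CPM, lie close to iBET at 256 and 230 CPM.

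Beside Meis1, the largest falls among genes with at least 5 CPM with iBET and no overlap between the groups were in genes of other kinds. Hpgd, the enzyme that inactivates prostaglandins, had 19 and 53.3 CPM with EPZ5676, 39.4 and 74.3 CPM with MI-2-2, and 1660 and 2300 CPM with iBET, a log2 difference of -5.42 (SE 0.43, adjusted p = 0.000205). DMSO had 645 and 599 CPM, below iBET and above the other 4. C2cd4a was at -5.11, the tetraspanin gene Tspan13 at -4.80, the transcriptional coactivator gene Ppargc1a at -4.60 and Crim1 at -4.28. Ppargc1a, known for driving mitochondrial genes, had 0.141 to 0.438 CPM against 5.54 and 5.19 CPM, and DMSO had 0.621 and 0.335 CPM, so that it was the iBET libraries that stood apart. The integrin gene Itgb7 and Serpina3g followed at -3.98 and -3.68.

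In the other direction, genes with no read in either iBET library had the largest fitted differences, of which only a lower bound can be given. The peroxisomal oxidase gene Acox2 had 15.8 and 14.2 CPM with EPZ5676 and 17.1 and 12 CPM with MI-2-2, at least 237-fold higher (adjusted p = 0.00011). The tight junction gene Cldn1, the fatty acid binding protein gene Fabp4, the collagen gene Col1a1 and the polarity gene Crb3 were at least 223-fold, 161-fold, 159-fold and 137-fold higher. BC117090, of the stefin A family, whose near-identical members may share reads, had 6.38 and 126 CPM with EPZ5676, 8.76 and 67.5 CPM with MI-2-2 and no read with iBET. It was at least 852-fold higher (adjusted p = 0.0217), and both replicates 2 were far above both replicates 1. Without iBET replicate 1 its adjusted p was 0.0778 and without iBET replicate 2 it was 0.0912, in a range from 4.5e-07 to 0.0912.

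Of 37 DNA replication genes, 29 were called lower (78.4%, beside 26.4% of all genes) and none higher by edgeR, with a median log2 difference of -0.54. Without iBET replicate 2, 11 were called lower. The polymerase gene Pole was at -0.88 (SE 0.0841, adjusted p = 0.000398), with 78 to 87.9 CPM against 164 and 152 CPM. The helicase subunit gene Mcm6 had 300 and 294 CPM with EPZ5676, 267 and 266 CPM with MI-2-2, and 473 and 543 CPM with iBET, at -0.82 (SE 0.0993, adjusted p = 0.000929). Pola2 was at -0.79. None of these reached 2-fold, but the 4 libraries lay below both iBET libraries in 28 of the 37 genes, beside 35.4% of all genes.

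Of 33 mitosis genes, 16 were called higher (48.5%, beside 27% of all genes) and 1 lower (3.03%, beside 26.4%), with a median of 0.28. These calls were less firm, with 8 higher under total-count scaling, which lowers all values. Leaving out 1 library gave 10 without EPZ5676 replicate 1, 9 without MI-2-2 replicate 1, 10 without MI-2-2 replicate 2, 8 without iBET replicate 1 and 5 without iBET replicate 2. The spindle gene Nusap1 had 141 and 164 CPM with EPZ5676, 116 and 108 CPM with MI-2-2, and 73 and 69.5 CPM with iBET, higher by 0.91 (SE 0.101, adjusted p = 0.000667). Ube2c and Plk1, a ubiquitin-conjugating enzyme and a kinase of mitosis, were higher by 0.69 and 0.65. Mad2l1, of the spindle checkpoint, was the gene called lower in the main fit, where total-count scaling or 8 libraries gave 2, at -0.41 (adjusted p = 0.0106). Its adjusted p was 0.0733 without iBET replicate 1 and 0.0703 without iBET replicate 2, in a range that reached 0.0795 with both inhibitors as a single condition.

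Of 20 regulators of the G1 phase, 9 were called higher (45%, beside 27% of all genes) and 4 lower (20%, beside 26.4%), and with all 10 libraries in the fit 5 were called higher. Cdkn2c (p18), an inhibitor of CDK4 and CDK6, had 12.7 and 19.9 CPM with EPZ5676, 6.25 and 9.37 CPM with MI-2-2, and 144 and 150 CPM with iBET, at -3.67 (SE 0.198, adjusted p = 5.56e-05). DMSO had 64.8 and 85 CPM, between the groups. Cdk4 was at -0.85, so the inhibitor and both of its kinase targets were lower together. Cyclin D1 (Ccnd1) was higher by 3.42 (adjusted p = 0.000516), with 8.72 to 25.3 CPM against 1.42 and 1.65 CPM. The CDK inhibitor gene Cdkn1c and cyclin D2 (Ccnd2) were higher by 3.02 and 1.99, but without iBET replicate 2 their adjusted p was 0.0534 and 0.0941. Their ranges were 2.66e-08 to 0.0534 and 3.03e-05 to 0.0941.

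Ribosome biogenesis genes, many of which are targets of MYC, were lower almost throughout. Of 34 genes, 31 were called lower (91.2%, beside 26.4% of all genes) and none higher by edgeR, with a median log2 difference of -0.97. Their sum was 3110 and 3630 CPM with EPZ5676, 2710 and 3110 CPM with MI-2-2, and 5340 and 6220 CPM with iBET, against 5370 and 10900 CPM with DMSO. Rcl1, of pre-rRNA processing, had 15.1 and 20.5 CPM with EPZ5676, 14 and 16.2 CPM with MI-2-2, and 44.7 and 56.9 CPM with iBET, at -1.60 (SE 0.16, adjusted p = 0.000463). Wdr12 and Noc3l, of the large ribosomal subunit, were at -1.29 and -1.26. In 33 of the 34 genes the 4 libraries all lay below both iBET libraries, beside 35.4% of all genes.

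Myc itself was not called. It had 253 and 145 CPM with EPZ5676, 183 and 135 CPM with MI-2-2, and 314 and 258 CPM with iBET, a log2 difference of -0.65 (95% interval -1.25 to -0.05, adjusted p = 0.0671). The 4 values lay below both iBET values, and the call depended on the settings, with adjusted p from 0.000482 to 0.287 over 15 alternatives, of which 7 passed. All 6 libraries were below DMSO, at 455 and 401 CPM.

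Genes known to respond to BET inhibitors moved in both directions. The list was not split by the direction of that response, so counts on both sides do not describe it. Of 14, 5 were called higher and 5 lower (35.7% each, beside 27% and 26.4% of all genes), and 2 were called lower without iBET replicate 1. Hexim1, the inhibitor of P-TEFb and a pharmacodynamic marker of BET inhibition, had 101 and 107 CPM with EPZ5676, 104 and 88.6 CPM with MI-2-2, and 213 and 205 CPM with iBET, at -1.03 (SE 0.101, adjusted p = 0.00044). DMSO had 73.4 and 146 CPM, below iBET in both replicates. Serpini1, another such marker, had at most 0.798 CPM in any of the 6 libraries, with a log2 difference of -0.54 (95% interval -1.54 to 0.46, adjusted p = 0.309). The survival gene Bcl2 was at -1.39 and its call was lost without iBET replicate 1 (adjusted p = 0.0515, in a range from 8.45e-05 to 0.0515). The genes called higher included Il1rn, Ccr1 and the receptor gene Cd180, the last by 2.99.

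Among genes that encode the inhibitors' own targets, differences were small. Men1 was at -0.09 (95% interval -0.61 to 0.44, adjusted p = 0.761). Dot1l was at -0.41 (SE 0.113, adjusted p = 0.0216), with 85.1 to 104 CPM against 138 and 129 CPM. Its call was lost without MI-2-2 replicate 2 (0.0524), iBET replicate 1 (0.134) or iBET replicate 2 (0.0778), in a range from 0.00213 to 0.134. Brd2, named after its values were seen, was at -0.65 (adjusted p = 0.00178).

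With the MLL complex partners and elongation factors, this list had 36 of 37 genes tested, of which 5 were called higher (13.9%, beside 27% of all genes) and 11 lower (30.6%, beside 26.4%), with a median of -0.13. Under total-count scaling 3 were called higher, and without iBET replicate 1, 1 was. Without iBET replicate 2, none was called higher by edgeR and 6 were lower, with 5725 genes of the whole table at an unadjusted p under 0.05. Ctr9, of the PAF1 complex, had 85.7 and 87.4 CPM with EPZ5676, 72.2 and 71.7 CPM with MI-2-2, and 185 and 179 CPM with iBET, at -1.17 (SE 0.0794, adjusted p = 0.00012). Larp7, which holds P-TEFb in its inactive form together with HEXIM1, was at -0.95, a call lost without iBET replicate 2 (adjusted p = 0.08, in a range from 1.16e-05 to 0.08).

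Sterol and fatty acid synthesis genes were higher in 13 of 27 tested (48.1%, beside 27% of all genes) and lower in none by edgeR in the main fit, with a median log2 difference of 0.48. Under total-count scaling 1 was lower. Fdps, which makes farnesyl pyrophosphate, had 181 and 201 CPM with EPZ5676, 171 and 144 CPM with MI-2-2, and 41 and 33.1 CPM with iBET, higher by 2.26 (SE 0.146, adjusted p = 0.000104). Mvd and Pmvk, of the steps before it, were higher by 1.56 and 1.43. For Fdps, DMSO had 109 and 120 CPM, above iBET and below the other 4.

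Genes of the ATF4 response and serine synthesis were lower in 8 of 14 tested (57.1%, beside 26.4% of all genes) and higher in 2 (14.3%, beside 27%), with a median of -0.45. The serine synthesis enzymes Phgdh and Psat1 were at -1.30 (adjusted p = 0.00162) and -1.01 (adjusted p = 0.0018), and mitochondrial Shmt2 at -1.28 (adjusted p = 0.000791). Shmt2 had 175 and 133 CPM with EPZ5676, 151 and 124 CPM with MI-2-2, and 359 and 365 CPM with iBET, below DMSO at 444 and 472 CPM. The cystine transporter gene Slc7a11 and Atf3 were higher, by 1.75 and 2.74. The number called lower was 5 without MI-2-2 replicate 2, 3 without iBET replicate 1 and 4 without iBET replicate 2, and 5 with all 10 libraries in the fit.

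**Figure D4:**
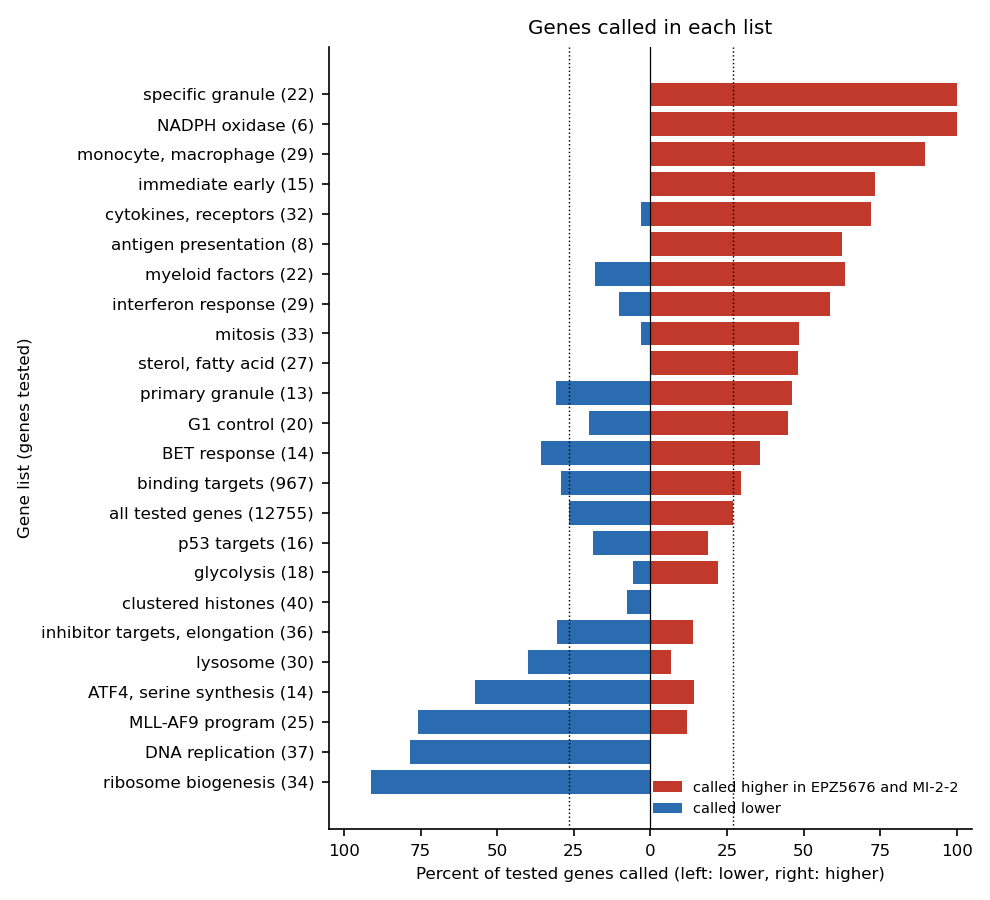
Percent of the tested genes of each list that were called higher or lower with EPZ5676 and MI-2-2 than with iBET, beside the same for all 12755 genes (27% and 26.4%). Specific granule and NADPH oxidase genes are at 100% higher, and ribosome biogenesis genes at 91.2% lower.

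Markers of other cell types were counted as a whole, since several moved with these differences. Of 15 erythroid and megakaryocyte markers 8 were tested and 6 were called higher (75%, beside 27% of all genes). Their sum was 35.8 and 49.6 CPM with EPZ5676, 31.5 and 75.1 CPM with MI-2-2, and 2.35 and 2.57 CPM with iBET, and von Willebrand factor (Vwf), higher by 6.27, made up most of it with EPZ5676 and MI-2-2. The markers Hba-a1, Hbb-b1 and Car1 had no read in the 6 libraries, but the globin genes have near-identical relatives and may have lost shared reads in counting, so their 0 does not show absence. Of 18 lymphoid markers 4 were tested and 3 were called higher (75%, beside 27%), with sums of 11.5 and 12.1 CPM with EPZ5676, 8.76 and 8.2 CPM with MI-2-2, and 2.08 and 2.19 CPM with iBET. The most abundant with EPZ5676 and MI-2-2 was Cd79b, higher by 5.33, and with iBET it was Lck, at 1.68 and 1.58 CPM. Ms4a1, Pax5, Ebf1, Cd3e, Cd8a, Rag1 and Rag2 had no read.

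Of 10 markers of stroma and endothelium 3 were tested and all 3 were called higher (100%, beside 27% of all genes), with sums of 8.75 and 23.3 CPM, 6.46 and 16.4 CPM, and 0.266 and 0.538 CPM in the order EPZ5676, MI-2-2, iBET. With DMSO, the sum was 3.57 and 244 CPM, and 243 CPM of the latter was the collagen gene Col6a3. Col1a1 was the most abundant with EPZ5676 and MI-2-2, and Col1a2, Col3a1, Dcn and Lum had no read. Of 9 eosinophil markers 2 were tested and both were called higher (100%, beside 27%), but 1 with 10 libraries or under a filter of 1 CPM, with sums of 31.9 and 29.6 CPM, 21 and 21.2 CPM, and 0.975 and 0.999 CPM in the same order. Nearly all of this was Siglec5, higher by 4.85, and the granule proteins Prg2, Prg3 and Epx were at or below 0.193 CPM. Set at the bound for genes with no iBET read, the median was 3.79 for the eosinophil and 3.85 for the stromal list, beside fitted values of 5.40 and 7.17. Of 13 mast cell and basophil markers 4 were tested, 2 called higher and 2 lower (50% each, beside 27% and 26.4%), with sums of 27.1 and 35.7 CPM, 23.7 and 24.4 CPM, and 23.4 and 24.9 CPM. The number called higher was 1 under total-count scaling or without EPZ5676 replicate 2, MI-2-2 replicate 1, iBET replicate 1 or iBET replicate 2, and with 10 libraries both genes lost their call. Hdc, the most abundant with EPZ5676 and MI-2-2, was higher by 1.69, a call lost with all 10 libraries in the fit (adjusted p = 0.0933, the top of its range over the alternatives), and Mcpt8, the most abundant with iBET, was at -1.62. Fcer1a, Prss34, Cma1, Tpsb2 and Tpsab1 had no read, and for the related tryptase genes Tpsb2 and Tpsab1 shared reads may have been lost in the same way. The part of other cell types in the differences described above was not tested.

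Genes that the study itself lists as bound by both MLL1 and MLL-AF9 were near the background. Of 1347 listed genes present in the table, 967 were tested, 286 (29.6%) were called higher and 282 (29.2%) lower, beside 27% and 26.4% of all genes. Their median log2 difference was 0.02, beside -0.01. Without iBET replicate 2, 182 were called higher and 177 lower.

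Taken each on its own against the same iBET libraries, EPZ5676 differed in 5994 genes (47%) and MI-2-2 in 6062 (47.5%). EPZ5676 had 3140 genes higher and 2854 lower, and MI-2-2 had 3188 higher and 2874 lower. Without iBET replicate 2 the counts were 3255 and 3221, and without iBET replicate 1 the count for EPZ5676 was 3955. For the specific granule genes the median log2 difference was 6.76 with EPZ5676 and 6.74 with MI-2-2, for ribosome biogenesis -0.92 and -1.04, and for the MLL-AF9 program -1.31 and -0.85. Meis1 was at -5.41 and -5.87, and Cdk6 at -2.49 and -2.22. Since both comparisons share the iBET libraries, these values are given side by side and not as support for each other.

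Tested directly, EPZ5676 and MI-2-2 differed from each other in 10 genes (0.0784%), of which 2 were higher with EPZ5676. The count depended on the test, and these are some of the fits tried. At an unadjusted p under 0.05 there were 1429 genes, DESeq2 called 311 and the fit without a filter called 119. The fit with MM-401 added (8 libraries) called 126, and the fit of all 10 libraries called 2. Leaving out any of the 4 EPZ5676 and MI-2-2 libraries left none by edgeR, with 1007 to 1832 genes at an unadjusted p under 0.05, and leaving out either iBET library left 4. A gene that was not called here is thus not shown to respond alike to both. For Ltf the difference between the inhibitors had a 95% interval from -0.83 to 0.45, for Cybb from -0.33 to 0.67, for Meis1 from -0.65 to 1.56, and for Camp from 0.70 to 1.56.

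Among the 10 genes were 2 of the HOXA cluster. Hoxa11 had 56.3 and 58 CPM with EPZ5676, 205 and 187 CPM with MI-2-2, and 256 and 230 CPM with iBET. It was 1.77 lower on the log2 scale with EPZ5676, a difference of -1.77 (adjusted p = 0.0102), and the mean of both inhibitors, at -1.16 against iBET, describes neither. Taken with EPZ5676 and MI-2-2 as a single condition, its adjusted p against iBET was 0.193, and with all 10 libraries in the fit it was 0.164, in a range from 6.23e-21 to 0.193. Hoxa5, with 33.6 and 26.7 CPM with EPZ5676 and 97.8 and 88.3 CPM with MI-2-2, differed by -1.62 (adjusted p = 0.0383) around iBET levels of 67 and 74.5 CPM. Hoxa5 was lower than iBET with EPZ5676 (-1.19, adjusted p = 0.00171), and with MI-2-2 the difference was 0.43 (adjusted p = 0.0591). As a group of 4 against iBET, Hoxa5 had a log2 difference of -0.38 that describes neither inhibitor, and its call was lost in 10 of 15 alternatives.

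The other genes called between the inhibitors were Irx5 (-3.07), Abcc3 (-2.29), Glyat (-2.68) and Dennd5b (4.03), and, named after the values were seen as was Hoxa5, Ly6c1 (-3.33), Fut8 (-1.29), Cgnl1 (-1.23) and Fcnb (2.47). All are EPZ5676 minus MI-2-2 on the log2 scale. The homeobox gene Irx5 had 3.77 and 4.76 CPM with EPZ5676 and 34 and 37.8 CPM with MI-2-2, the latter at the iBET levels of 36.3 and 26.8 CPM. The transporter gene Abcc3 had 34.3 and 27.3 CPM with EPZ5676, 160 and 144 CPM with MI-2-2, and 5.45 and 5.07 CPM with iBET, and was thus above iBET with both. Fcnb, a ficolin of neutrophil granules, had 128 and 132 CPM with EPZ5676, 24.6 and 22.5 CPM with MI-2-2, and 4 reads in all with iBET. Dennd5b had 4.98 and 5.41 CPM with EPZ5676 and 0.26 and 0.365 CPM with MI-2-2, both below iBET at 13.1 and 14.1 CPM.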

How the data were processed

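Gene counts were used as deposited. According to the submitters' processing notes, reads were aligned to mm9 with TopHat2 and counted with Subread before the authors analyzed them with DESeq (versions, strand and treatment of multiply mapped reads not given). Here, R 4.3.3 with edgeR 4.0.16 and limma 3.58.1 was used: filterByExpr, TMM, 1 coefficient per condition, quasi-likelihood test and Benjamini-Hochberg adjustment over 12755 genes at FDR 0.05. The main contrast was the mean of EPZ5676 and MI-2-2 minus iBET. Alternatives (15) were RLE or total-count scaling, DESeq2 1.42.0, other filters, 8 or 10 libraries, both inhibitors as a single condition, a replicate block, and each library left out.

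The members and the 30 gene lists were chosen with earlier results of these data known. Named genes were the 8 largest called rises and falls without overlap and at least 5 CPM, up to 3 called genes per list and direction, a fixed set of 14, and the 5 smallest p between EPZ5676 and MI-2-2. The list of mitochondrial genome genes had no gene in the files. Genes without reads were set against a floor of 3 counts over the group, and such floors and ratio intervals cover counting error only. Promoters came from a RefSeq table on GRCm38.p6. The scripts were tested on simulated data.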

Additional observations from a re-analysis of the deposited data

Results flagged for a closer look

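Among the 124 named genes, 6 had 1 of the 4 EPZ5676 and MI-2-2 libraries far from the other 3 in log2(CPM + 0.5). The gap to the nearest library passed Dixon's critical value in each. As a part of the whole range it was 0.956 for Cebpe, 0.871 for Ppargc1a, 0.867 for Ncf1, 0.852 for Dot1l, 0.841 for Mvd and 0.832 for Prss57. Chance alone marks about 1 in 20 groups.

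The test of EPZ5676 against MI-2-2 marked 10 genes whose difference from iBET depended on the inhibitor. The log2 difference between the inhibitors was -2.29 for Abcc3, -1.29 for Fut8, -3.33 for Ly6c1, -2.68 for Glyat, 2.47 for Fcnb, -1.62 for Hoxa5, -1.77 for Hoxa11, 4.03 for Dennd5b, -3.07 for Irx5 and -1.23 for Cgnl1.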

How the results depend on the processing

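Leaving out 1 library gave 3845 to 6663 calls in place of 6810, 2115 to 3415 higher in place of 3447 and 1730 to 3292 lower in place of 3363, each lowest without iBET replicate 2, and 2184 were lower without iBET replicate 1. EPZ5676 against iBET gave 3255 to 5776 in place of 5994 (3955 without iBET replicate 1), and MI-2-2 against iBET 3221 to 6262 in place of 6062. EPZ5676 against MI-2-2 gave 10 genes, 311 with DESeq2, 119 without a filter, 126 with 8 libraries, 2 with 10 libraries, and 0 to 4 with 1 library left out. The count of 0 by edgeR came without any of the EPZ5676 or MI-2-2 libraries, with 1832, 1007, 1151 and 1116 genes at an unadjusted p under 0.05. With the replicate number as a replicate block, 768 genes differed between EPZ5676 and MI-2-2 and 8450 between the group of 4 and iBET. In that fit 11 glycolysis genes were called higher in place of 4, 6 lysosome genes in place of 2 and 6 genes of the p53 response in place of 3, and 8 clustered histone genes were called lower in place of 3. It also called 4 genes of the ATF4 response higher in place of 2, and 2 cytokine genes and 2 mitosis genes lower in place of 1. Glycolysis likewise had 2 genes called lower in place of 1. In place of 0, 1 clustered histone gene was called higher, and 1 monocyte and macrophage gene and 1 antigen presentation gene lower. Deviations of libraries with the same number correlated at 0.708 between EPZ5676 and MI-2-2, 0.362 between EPZ5676 and iBET and 0.367 between MI-2-2 and iBET. With 2 libraries per condition these share only a number, and the cause was not tested.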

Other observations

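Interferon response genes were called higher in 17 of 29 tested (58.6%, beside 27% of all genes) and lower in 3 (10.3%, beside 26.4%), with a median log2 difference of 1.07, beside -0.01 for all genes. Their sum was 951 and 803 CPM with EPZ5676, 1340 and 898 CPM with MI-2-2, and 659 and 598 CPM with iBET. The antiviral genes Rsad2 and Ifit2 were higher by 5.28 and 3.86. The number called higher was 9 without iBET replicate 1 and 7 without iBET replicate 2, and 1 was called lower in each of these fits. Of 30 lysosome genes, 2 were called higher (6.67%, beside 27% of all genes) and 12 lower (40%, beside 26.4%), 7 without iBET replicate 2. The number called higher was 4 with DESeq2 or without EPZ5676 replicate 1, and 1 under total-count scaling, with 10 libraries, or without EPZ5676 replicate 2, MI-2-2 replicate 2 or either iBET library. The hydrolase genes Hexa, Glb1 and Tpp1 were at -1.13, -1.12 and -1.06, while the protease gene Ctsh was higher by 3.25.

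Genes of the p53 response were called higher in 3 of 16 tested and lower in 3 (18.8% each, beside 27% and 26.4% of all genes), with a median of 0.15, and 1 was higher without iBET replicate 2. Trp53inp1, which p53 induces, was higher by 2.43, and the nuclease gene Aen was at -0.86. Among glycolysis genes, Gapdh had 6.53 to 11.2 CPM and Eno1 3.04 to 5.51 CPM in the 6 libraries, beside 905 to 2360 CPM for Aldoa. The treatment of multiply mapped reads is not given, so the levels of Gapdh and Eno1 are uncertain. Glycolysis genes were called higher in 4 of 18 (22.2%, beside 27% of all genes) and lower in 1 (5.56%, beside 26.4%), with a median of 0.48. The count higher was 2 under total-count scaling or without EPZ5676 replicate 1 or MI-2-2 replicate 1, and 1 without iBET replicate 2, and 2 were lower without EPZ5676 replicate 1. Clustered histone genes, whose near-identical members share reads, were called lower in 3 of 40 tested (7.5%, beside 26.4% of all genes) and higher in none by edgeR, with a median of -0.33, and 1 was higher without a filter or without MI-2-2 replicate 2. The number called lower was 5 under total-count scaling or with 8 libraries, 0 without iBET replicate 1 and 1 without iBET replicate 2.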
